A study of Drosophila melanogaster with 20 samples.

Results

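Cytosolic ribosomal protein genes of Drosophila melanogaster were examined by neuRNA-seq, which measures newly transcribed RNA captured after a 1 h pulse of EU. Members were all genes whose FlyBase symbol begins with RpL or RpS, together with RpLP0, RpLP1, RpLP2 and sta, without pseudogenes and RpLP0-like. Of 17659 genes with a row, 87 were members, 37 of the small (40S) and 50 of the large (60S) subunit. The rule names 92 symbols, and the 5 with no matching row (RpL19, RpL27A, RpL31, RpS10b and RpS12) were not analysed here. Members outside paralog families numbered 63, and 24 had a duplicated or related copy.

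The cells were Kc167, a female embryonic line with hemocyte character. They were transfected with dsRNA against GAF, the GAGA factor encoded by Trl (2 libraries, replicates 2 and 3), or against Mi-2, a chromatin remodelling ATPase (2 libraries, replicates 1 and 2). All values below compare these knockdowns with each other. A difference therefore cannot be assigned to either knockdown, since no mock treatment is in the comparison. The labels do not say whether replicates came from separate cultures, so p-values measure only the spread between these libraries. Total gene counts ran from 3966515 (Mi-2 knockdown replicate 1) to 12563919 (GAF knockdown replicate 3), so 3 counts, taken as the limit that a count of 0 allows, correspond to between 0.236 and 0.757 CPM. These limits cover counting error only.

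Ribosomal protein genes encode the proteins of the cytosolic ribosome, and cells make their products in nearly equal amounts. In the fly, many of their promoters carry motif 1, bound by the zinc finger factor M1BP, or a TCT initiator used with the TBP-related factor Trf2. GAF and Mi-2 are known for work at other promoters and enhancers: GAF opens chromatin at GA repeats, and Mi-2 is the ATPase of the NuRD and dMec complexes.

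Mi-2 itself stood at 431 and 436 CPM in the GAF knockdown and at 300 and 311 CPM in the Mi-2 knockdown (log2 fold change 0.50, adjusted p = 0.0109 in edgeR). Trl stood at 6.97 and 10.9 CPM in the GAF knockdown and at 13.4 and 12.3 CPM in the Mi-2 knockdown (log2 fold change -0.51, adjusted p = 0.566 in edgeR). Each targeted gene was lower in its own knockdown without overlap, and only Mi-2 passed the test. The hemocyte markers srp, ush and Hml were present in every library, and the summed level of the 10 hemocyte markers was 6436 and 6185 CPM in the GAF knockdown and 5570 and 5955 CPM in the Mi-2 knockdown, with none at 0 in every library. Of the 9 tested, 3 were called higher in the GAF knockdown (Pxn, vkg and Col4a1) and 0 lower, against 3.40% and 6.06% of all genes. Among the low markers, NimC1 reached at most 0.472 CPM and He ran from 6.81 to 9.03 CPM. eater had 26 and 42 counts in the GAF knockdown and 0 and 6 in the Mi-2 knockdown. The 6 germline markers summed to between 69.9 and 105 CPM, with zpg at 0, and the 4 neuronal markers to 182 and 147 CPM in the GAF knockdown and 329 and 375 CPM in the Mi-2 knockdown. Most of the neuronal difference lay in brp, at 108 and 94.0 CPM against 249 and 283 CPM (log2 fold change -1.40, adjusted p = 0.000265 in edgeR). elav was lower in the GAF knockdown without being called (-0.47), and nSyb and Syt1 reached at most 2.53 CPM and overlapped. Muscle markers summed to at most 15.5 CPM and fat body markers to at most 9.36 CPM, with Lsp1alpha and Fbp1 at 0. The part of these differences in the results below was not tested, and in bulk RNA fewer cells of a type and less RNA per cell cannot be told apart.

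Ribosomal protein genes were among those with the highest levels of newly made RNA per kilobase. The level is of RNA labelled over 1 h and counted over whole gene bodies, and a rate of transcription was not measured. Per kilobase of gene body not shared with another gene of the same strand, the median member stood at 131 CPM, against 15.6 CPM for the 7705 tested genes with at least 100 unshared bases. Of the 100 genes with the highest level per kilobase, 24 were members, and 53 members exceeded 100 CPM per kilobase. RpL21, which encodes a 60S protein, stood at 408, 410, 396 and 399 CPM per kilobase in GAF knockdown replicates 2 and 3 and Mi-2 knockdown replicates 1 and 2. RpLP1, a protein of the acidic stalk that recruits elongation factors, stood at 402, 330, 370 and 316 CPM per kilobase in the same order of libraries. The 60S protein gene RpL15 stood at 282, 270, 263 and 270 CPM per kilobase. These 3 genes differed little between the knockdowns, with overlapping libraries in RpLP1 and RpL15. For RpL21 the GAF libraries were above the Mi-2 libraries by a small margin (log2 fold change 0.04, standard error 0.097, adjusted p = 0.867 in edgeR).

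RpL23A and RpL4 completed the 5 highest. RpL23A lies beside the opening of the peptide exit tunnel and stood at 434, 385, 271 and 337 CPM per kilobase. RpL4, whose loop lines that tunnel, stood at 328, 285, 218 and 233 CPM per kilobase. Unlike the other 3, both were higher in the GAF knockdown by the test given below. The order of levels was close to the same in all libraries: Spearman's rho between any pair ran from 0.936 to 0.981 over the 78 tested members, whose gene lengths and counting are shared. Members did not have equal levels even so. RpS15Ab, the lowest after RpS19b, stood at 13.9, 14.0, 16.0 and 12.7 CPM per kilobase.

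**Figure D1:**
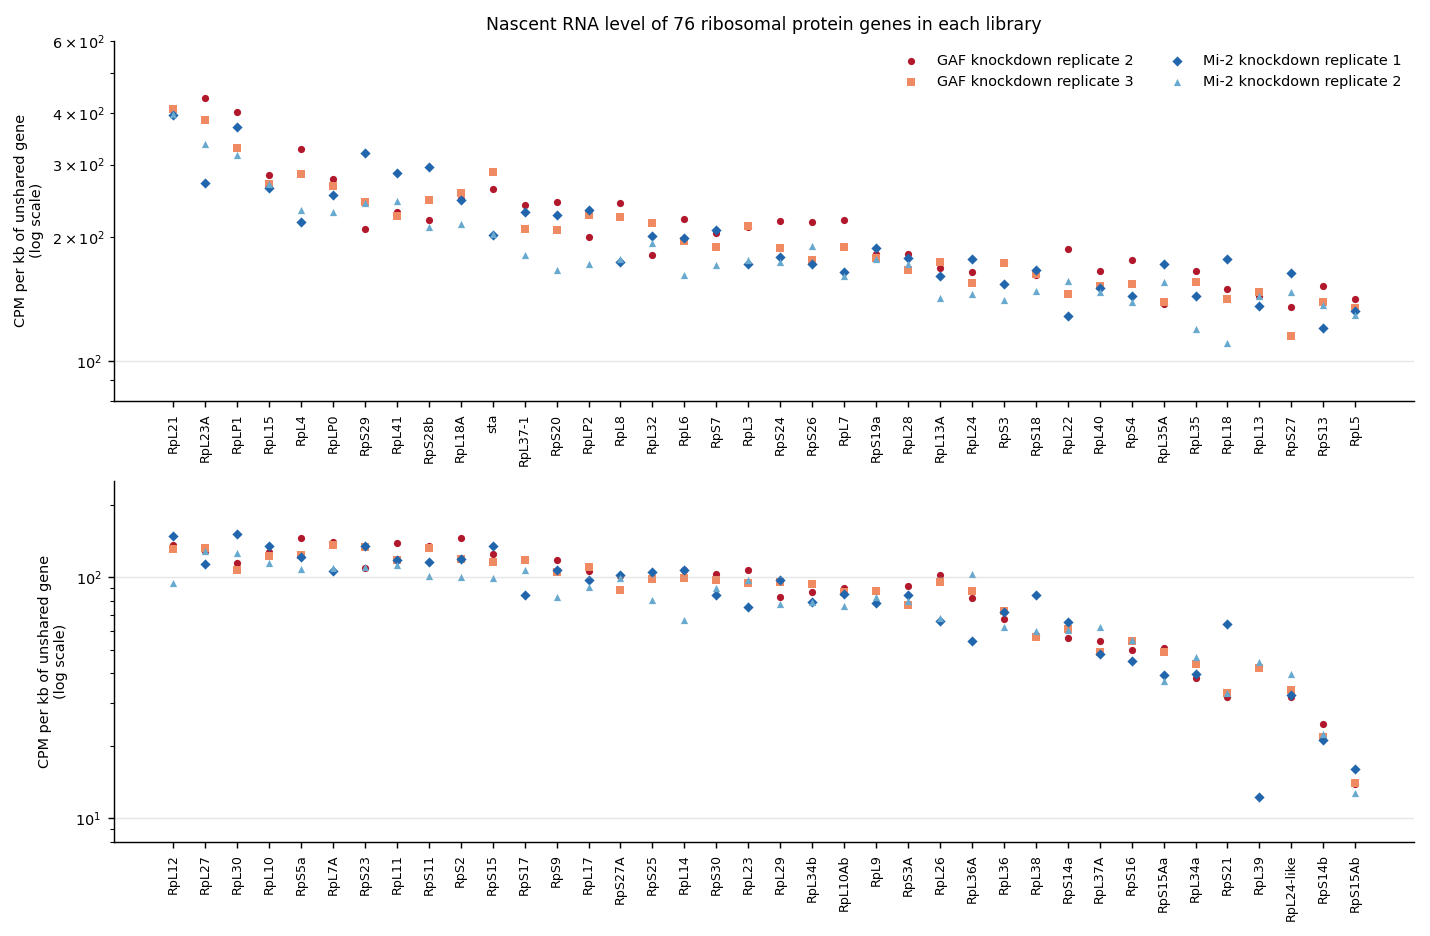
Level of 76 of the tested ribosomal protein genes in CPM per kilobase of gene body not shared with another gene (log axis, which differs between the panels), ordered by the mean over libraries, with 1 point per library. RpL21 has the highest mean, from 396 to 410 CPM per kilobase, most genes lie over 100, and Mi-2 knockdown replicate 1 stands below the other libraries in RpL39 and above them in RpS21.

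Of the 87 members, 78 passed the filter on low counts and 9 did not. The latter were 8 members at 0 in every library and RpS5b. RpS6, the 40S protein phosphorylated by S6 kinase, was at 0 in all 4 libraries, at X:7899624-7901331 on the minus strand of dm6. Of its length, 98.3% lies under CR33222, a pseudogene of the same strand at X:7898438-7901302, and reads that fall on more than 1 gene are not assigned to either by default in featureCounts. RpL7-like, also at 0, is 98.9% shared with CG34164. The other 6 members at 0 (RpS10a, RpL37-2, RpL22-like, RpL10Aa, RpS28a and RpS28-like) belong to paralog families. The partner of RpS10a, RpS10b, is among the symbols without a row. For RpS6 and RpL7-like the 0 says nothing of transcription.

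The same counting touches genes inside members. Small nucleolar RNA (snoRNA) genes, whose products guide chemical modification of ribosomal RNA, lie in the introns of 27 members on the same strand. All 71 of them had 0 counts in every library, as had all 240 snoRNA genes that lie inside any gene of their strand. Of the 18 snoRNA genes under no other gene, 8 were at 0. RpS5a holds 14 snoRNA genes, which share 42.4% of its length. RpS27A, which encodes a ubiquitin fusion, shares 59.8% of its length with Ip259, and RpL22 shares 52.2%. Levels per kilobase were therefore taken over unshared bases.

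Between the knockdowns, ribosomal protein genes were slightly higher in the GAF knockdown, and a few of them passed the test. RpS19b, which passed the filter only through the GAF libraries, is set apart below. Of the other 77 tested, 8 (10.4%) were called higher in the GAF knockdown and 0 lower, in edgeR. Over all genes tested, 3.40% were called higher and 6.06% lower (9.46% in either direction). At an unadjusted p under 0.05 and with RpS19b counted, 12 members were higher and 3 lower, against 8.92% and 11.2% of all genes, and DESeq2 called 9 higher and 0 lower, the same genes as edgeR with RpS19b. The median log2 fold change of the members was 0.11 with or without RpS19b (interquartile range 0.01 to 0.23 with it). That of all genes was -0.0024 (interquartile range -0.31 to 0.23). Of the 78 members with RpS19b, 59 (75.6%) lay above 0, against 49.7% of all genes. Both GAF libraries were above both Mi-2 libraries in 33 of these 78 (42.3%, against 24.8% of all genes). They were below them in 5 (6.41%, against 26.0%), and 40 overlapped. RpS19b is among the 59 and the 33, and its place there was fixed by the filter.

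The size of this shift depended on the libraries compared. The median member difference was 0.12 on the log2 scale for GAF knockdown replicate 2 against Mi-2 knockdown replicate 1, and 0.19 against Mi-2 knockdown replicate 2. It was 0.03 for GAF knockdown replicate 3 against Mi-2 knockdown replicate 1, and 0.14 against Mi-2 knockdown replicate 2. All 4 medians were above 0, and replicates of a knockdown differed from each other by -0.06 (GAF, replicate 3 minus 2) and -0.08 (Mi-2, replicate 2 minus 1). The calls needed both GAF libraries. A fit without 1 of them leaves a lone library in that group, and over all genes fewer were called as well. Leaving out a Mi-2 library also leaves a lone library, yet more members and more of all genes were then called. The part of the number of libraries in these calls was not tested. With 1 library left out, the log2 fold change of RpL3 ran from 0.27 to 0.31 and that of RpL26 from 0.51 to 0.60. With 1 library of either knockdown left out, the median log2 fold change of the members ran from 0.0793 to 0.158. Single members moved more, with RpS21 from -0.962 to -0.018 and RpL39 from -0.073 to 1.80.

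**Figure D2:**
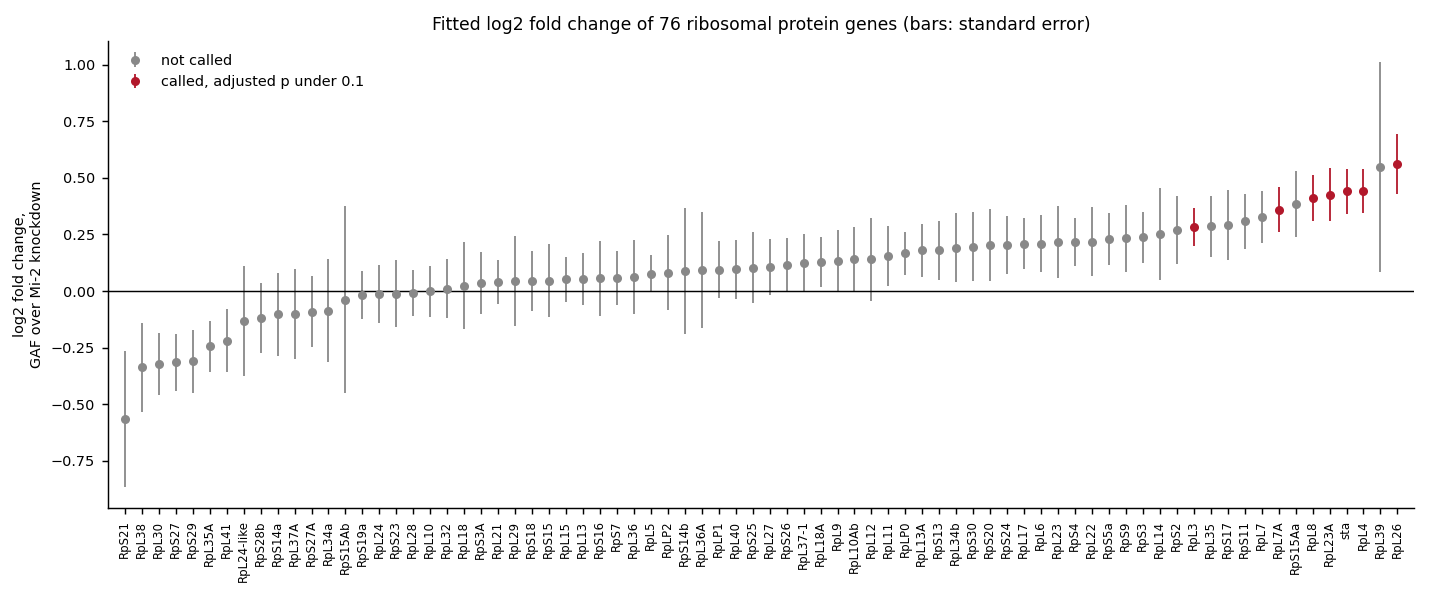
Fitted log2 fold change of each of 76 tested ribosomal protein genes, GAF over Mi-2 knockdown, sorted, with bars for the standard error and called genes in red. The values run from -0.57 (RpS21) to 0.56 (RpL26), and all 7 called genes drawn lie above 0.

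The called members of the large subunit were RpL26, RpL4, RpL23A, RpL8, RpL7A and RpL3. RpL26 (3L:18898875-18900408, plus strand) encodes a protein at the exit of the peptide tunnel. It stood at 157 and 146 CPM in the GAF knockdown and at 101 and 104 CPM in the Mi-2 knockdown. Its libraries were tight within each knockdown and far apart between them, and its log2 fold change of 0.56 (standard error 0.133, adjusted p = 0.0363 in edgeR) was the largest fitted value of the called members but for RpS19b. RpL4 (3R:27922821-27924888, plus strand) stood at 631 and 547 CPM against 419 and 448 CPM, with a log2 fold change of 0.44 (standard error 0.098, adjusted p = 0.0274 in edgeR). RpL23A (3L:1666288-1668654, minus strand) stood at 585 and 518 CPM against 366 and 454 CPM (log2 fold change 0.43, standard error 0.117, adjusted p = 0.0654 in edgeR). Its Mi-2 libraries were wider apart than those of RpL26, though still below both GAF libraries, and without Mi-2 knockdown replicate 1 its log2 fold change was 0.28.

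RpL8 and RpL3 lie close to the peptidyl transferase centre, where peptide bonds form. RpL8 (3L:2587456-2588883, plus strand) stood at 346 and 320 CPM in the GAF knockdown and at 249 and 252 CPM in the Mi-2 knockdown (log2 fold change 0.41, standard error 0.102, adjusted p = 0.0445 in edgeR). RpL3 (3R:11221894-11225173, plus strand), the longest protein of the set with 416 codons, stood at 592 and 594 CPM against 481 and 494 CPM. Its log2 fold change was the smallest of the called genes, 0.28, with a standard error of 0.083 (adjusted p = 0.0799 in edgeR). RpL7A (X:6530897-6533348, minus strand), another 60S protein gene, stood at 336 and 324 CPM against 252 and 261 CPM (log2 fold change 0.36, standard error 0.10, adjusted p = 0.0693 in edgeR). In all 3 the replicates lay closer to each other than to the other knockdown. With the gene length trend removed, RpL23A, RpL7A and RpL3 were not called (adjusted p = 0.105, 0.119 and 0.192 in edgeR).

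In the small subunit, sta and RpS19b were among the called genes. sta (stubarista, X:1481797-1483413, minus strand), the fly RpSA protein, whose yeast counterparts are needed to mature the 40S subunit, stood at 388 and 426 CPM against 299 and 301 CPM (log2 fold change 0.44, standard error 0.098, adjusted p = 0.0283 in edgeR). The lower of its GAF libraries was still above the higher of its Mi-2 libraries. By subunit and without RpS19b, 2 of 31 tested 40S genes were called (median log2 fold change 0.10), and 6 of 46 tested 60S genes (median 0.12). The share called higher over all genes tested was 3.40%.

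RpS19b (3R:23932729-23933530, minus strand) is the second copy of RpS19, known in the fly from the germ line. It had 23 and 37 counts (3.73 and 2.91 CPM) in the GAF knockdown and 0 in both Mi-2 libraries. It passed the filter only through the group where it is high, so it had to differ (adjusted p = 0.0797 in edgeR), and it was not called once any library was left out. Against the mean limit of 3 counts per Mi-2 library it was at least 5.11-fold higher, and at least between 4.39-fold and 6.13-fold with a library left out. The germline markers beside it did not all go the same way: vas had 9, 1, 0 and 0 counts, while aub was called lower in the GAF knockdown (log2 fold change -1.23).

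No member was called lower in the GAF knockdown. The lowest was RpS21, a 40S protein known to associate with sta in the fly, at 30.7 and 31.9 CPM in the GAF knockdown and 61.6 and 31.8 CPM in the Mi-2 knockdown. Its log2 fold change of -0.57 (standard error 0.299, adjusted p = 0.337 in edgeR) rests on Mi-2 knockdown replicate 1, and was -0.02 without it. RpL38, a 60S protein known in the mouse for its role in Hox mRNA translation, stood at 61.5 and 60.3 CPM against 90.1 and 64.3 CPM (log2 fold change -0.34, standard error 0.196, adjusted p = 0.395 in edgeR). Without Mi-2 knockdown replicate 1 it stood at -0.08, so the same library carries most of its difference.

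The other 3 of the lowest 5 were RpL30, RpS27 and RpS29, each under an unadjusted p of 0.05. RpL30 (60S) stood at 139 and 130 CPM in the GAF knockdown and at 183 and 153 CPM in the Mi-2 knockdown (log2 fold change -0.32, standard error 0.138, adjusted p = 0.228 in edgeR). RpS27 (40S, a zinc finger protein) stood at 211 and 179 CPM against 255 and 229 CPM (log2 fold change -0.32, standard error 0.127, adjusted p = 0.195 in edgeR). RpS29, another small 40S zinc finger protein, stood at 281 and 327 CPM against 432 and 325 CPM (log2 fold change -0.31, standard error 0.139, adjusted p = 0.248 in edgeR). Only RpS29 overlapped between the knockdowns, through Mi-2 knockdown replicate 2. Without Mi-2 knockdown replicate 1, RpS29 stood at -0.09 and RpL30 at -0.19, and without GAF knockdown replicate 3, RpS27 stood at -0.21. The remaining genes with both GAF libraries below both Mi-2 libraries were RpL35A and RpL41.

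RpL39, the shortest 60S protein but for RpL41, had the third highest fitted fold change and was not called. It stood at 24.7 and 24.4 CPM in the GAF knockdown and at 7.07 and 25.8 CPM in the Mi-2 knockdown (log2 fold change 0.55, standard error 0.465, adjusted p = 0.577 in edgeR). Only Mi-2 knockdown replicate 1, with 28 counts, was low, and without it the log2 fold change was -0.07. RpL32 (rp49), widely used as a reference transcript in the fly, stood at 168 and 202 CPM against 188 and 180 CPM, with a log2 fold change of 0.01 (standard error 0.131, adjusted p = 0.980 in edgeR). The spread between its GAF libraries was wider than the difference between the knockdowns. The 44 tested members not described one by one had log2 fold changes from -0.24 to 0.31, with no adjusted p below 0.186.

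Members were measured more tightly than most genes. Their median level per kilobase lay at percentile 98.1 of the tested genes with at least 100 unshared bases. The part of level in this tightness, and in the share called, was not tested. The median standard error of the log2 fold change was 0.133 for members and 0.231 for all genes. Between the GAF libraries the median absolute log2 difference was 0.11 for members and 0.19 for all genes, and between the Mi-2 libraries 0.18 and 0.26. No member differed by over 0.5 between the GAF libraries, and 6 did between the Mi-2 libraries. Of these, RpL12, RpL14, RpL18 and RpS21 were higher in Mi-2 knockdown replicate 1, and RpL36A and RpL39 were higher in replicate 2. RpL36A stood at 47.4 CPM in Mi-2 knockdown replicate 1 and 90.6 CPM in replicate 2, on either side of its 71.5 and 76.7 CPM in the GAF knockdown.

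Within the set, the fold change went with the length of the protein. Spearman's rho between the fitted log2 fold change and the coding length was 0.443 over 77 members without RpS19b, given as a description across genes that share libraries and, in part, their level (rho between coding length and mean log2 CPM 0.468). Over 2983 other protein-coding genes in the same range of lengths it was 0.0667. For the members, rho of the fold change was also 0.332 with gene length and 0.258 with mean log2 CPM. Over the other genes these were -0.0172 and 0.0868. Coding length and gene length of the members went together (rho 0.554), and their separate parts were not tested. In the 4 pairs of a GAF with a Mi-2 library, rho with coding length for the members was 0.390, 0.443, 0.355 and 0.290. Between replicates it was -0.221 for GAF (replicate 3 minus 2) and 0.232 for Mi-2 (replicate 2 minus 1), so libraries of the same knockdown also differed with coding length, with a smaller rho.

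Of 22 tested members with at least 200 codons, 21 lay above 0, all but RpL10, their median log2 fold change was 0.22, and 7 were called. Among the 35 with 130 to 199 codons, 25 lay above 0, the median was 0.09 and only RpL26 was called. Of the 20 with under 130 codons, 12 lay above 0, with a median of 0.07, and none was called. Other protein-coding genes had medians of -0.03, -0.09 and -0.16 in these classes, from long to short, below the median of the members in each class. Of these other genes, 2.01%, 0.879% and 0.935% were called higher and 4.35%, 4.92% and 3.43% lower, against 31.8%, 2.86% and 0 of the members called higher. Long members were not all higher by the same amount. RpL5, the 60S protein that carries 5S ribosomal RNA into the ribosome, has 299 codons and stood at 631 and 601 CPM in the GAF knockdown and 590 and 577 CPM in the Mi-2 knockdown (log2 fold change 0.08, adjusted p = 0.668 in edgeR). RpL5 was named after its values were seen.

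**Figure D3:**
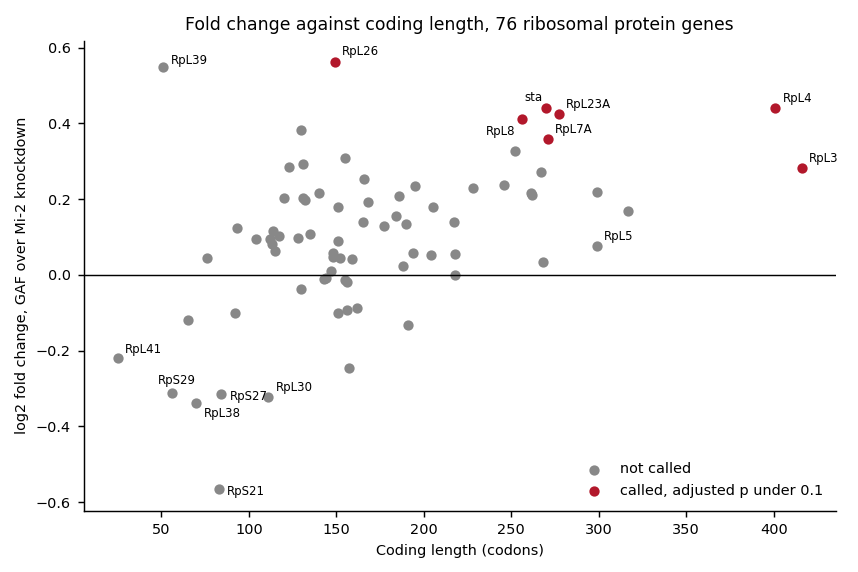
Fitted log2 fold change (GAF over Mi-2) against coding length in codons for 76 of the tested ribosomal protein genes, with called genes in red. Of the 7 called genes drawn, 6 have at least 200 codons, and the 5 lowest genes have under 130.

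Members with snoRNA genes inside had a median log2 fold change of 0.21 over 26 tested genes, and 6 of them were called, among them RpL23A, RpL3, RpL4, RpL7A and sta. The 52 members without snoRNA genes had a median of 0.09, and 3 were called, RpS19b among them. Over all genes tested, 3.40% were called higher. The hosts also had longer coding sequences, with a median of 613.5 bases against 445.5, and the part of length in this difference was not tested. By chromosome, the medians were 0.22 on 3L (13 genes), 0.21 on X (13 genes), 0.18 on 3R (19 genes), 0.09 on 2L (16 genes) and 0.07 on 2R (16 genes). Without RpS19b, the 8 called members lay on 3L (3 genes), 3R (3 genes) and X (2 genes). The medians of all tested genes on these 5 arms ran only from -0.03 to 0.02.

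As a share of all gene counts, the members took 1.67% and 1.58% in the GAF knockdown and 1.51% and 1.37% in the Mi-2 knockdown. The means were 1.62% ± 0.0602 (SD, n = 2) and 1.44% ± 0.0989 (SD, n = 2), a difference of 0.187 percentage points (exact two-sided permutation test, p = 0.33, the smallest that 2 libraries against 2 can give). The GAF libraries were both above the Mi-2 libraries, but the gap between them was smaller than that between the Mi-2 libraries. Without Mi-2 knockdown replicate 2 the difference was 0.117 points, and with any other library left out from 0.144 to 0.257 points. The 60S genes took 1.06%, 1.01%, 0.940% and 0.870%, and the 40S genes 0.610%, 0.576%, 0.567% and 0.497%. Without the members that hold snoRNA genes the shares were 0.885%, 0.848%, 0.844% and 0.744%, and the difference was 0.0725 points.

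**Figure D4:**
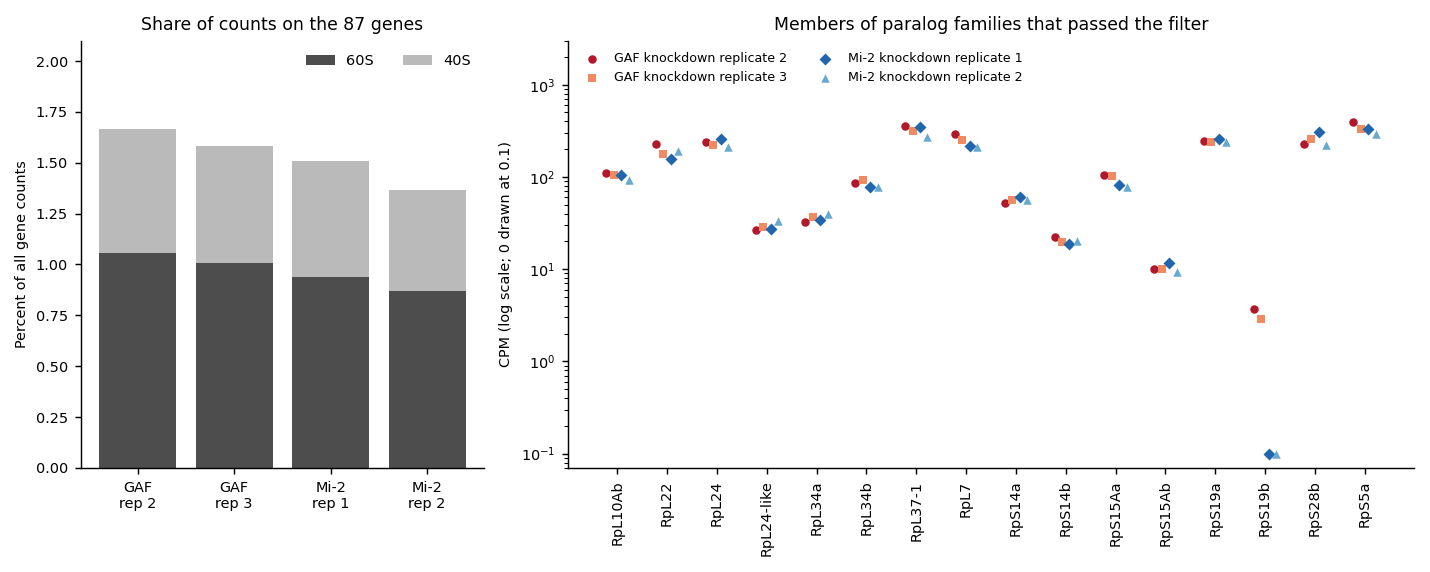
Left, the percentage of all gene counts on the 87 ribosomal protein genes in each library, split into 60S and 40S genes. Right, CPM (log axis) in each library for the 16 members of paralog families that passed the filter; RpS19b has 0 counts in both Mi-2 libraries, and the other 15 have counts in every library.

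Paralogs had unequal counts, with the same leading copy in all 4 libraries. Copies of near-identical sequence can share reads, so the split between them is uncertain. RpS14a and RpS14b, neighbours on X, stood at 52.6, 56.9, 61.1 and 56.7 CPM and at 22.1, 19.5, 18.9 and 20.04 CPM (GAF knockdown replicates 2 and 3, then Mi-2 knockdown replicates 1 and 2). RpS14a took 70.4%, 74.5%, 76.3% and 73.9% of the counts of the pair. Both copies were active, and both overlapped between the knockdowns. RpL34b stood at 85.8, 93.3, 78.5 and 78.5 CPM and RpL34a at 32.3, 36.9, 33.8 and 39.7 CPM, so RpL34b took between 66.4% and 72.7%.

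RpS15Aa stood at 105, 102, 81.5 and 77.1 CPM and RpS15Ab at 10.1, 10.1, 11.6 and 9.21 CPM. RpS15Aa is the longer gene (2069 against 724 bases), which widens this gap. It took 91.3%, 90.9%, 87.5% and 89.3% of the counts of the pair, but 78.5%, 77.8%, 71.1% and 74.6% of its level per kilobase. RpS15Aa was higher in both GAF libraries without passing the test (log2 fold change 0.38, standard error 0.146, adjusted p = 0.171 in edgeR), while RpS15Ab overlapped. RpL24 stood at 238, 223, 256 and 210 CPM. RpL24-like, whose yeast counterpart Rlp24 is a 60S assembly factor and not a ribosomal protein, stood at 26.8, 28.9, 27.5 and 33.4 CPM. Per kilobase, RpL24 took from 78.6% to 84.5% of the level of its pair. Neither gene separated the knockdowns.

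In the remaining families the main copy took nearly all counts, which for RpL7 was fixed by the counting. RpL7-like is 98.9% shared with CG34164, so its 0 says nothing of transcription. RpS19a stood at 247, 242, 255 and 240 CPM (log2 fold change -0.02, adjusted p = 0.952 in edgeR), and took 98.5% and 98.8% of the pair in the GAF knockdown and 100% in the Mi-2 knockdown. RpS5a stood at 391, 333, 327 and 290 CPM (log2 fold change 0.23, adjusted p = 0.304 in edgeR), and RpS5b, known for its expression in the ovary, had 0, 4, 0 and 1 counts. RpL7 was higher in both GAF libraries, at 289.5 and 249 CPM against 217 and 212 CPM (log2 fold change 0.33, adjusted p = 0.145 in edgeR). RpS28b stood at 229, 256, 308 and 220 CPM and RpL37-1 at 358, 313, 344 and 271 CPM, both overlapping. RpL10Ab stood at 110, 106, 104 and 92.4 CPM and RpL22 at 231, 179, 158 and 192 CPM, and the other copies of these 5 families were at 0 in every library.

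Translation factors, the proteins that load and move ribosomes, were also called in that direction only. Of 47 listed, 45 had a row and 42 were tested, and 6 were called higher in the GAF knockdown and 0 lower. The calls came to 14.3% of those tested, against 3.40% higher and 6.06% lower over all genes. Their median log2 fold change was 0.18, and 35 (83.3%) lay above 0, against 49.7% of all genes. The called genes included eIF2A, an alternative carrier of initiator tRNA in yeast and mammals (164 and 134 CPM against 106 and 99.6 CPM, log2 fold change 0.54), and eIF3d1, a subunit of the eIF3 complex (279 and 253 CPM against 206 and 190 CPM, log2 fold change 0.43). Rack1, a scaffold bound to the 40S subunit, stood at 474 and 419 CPM against 345 and 337 CPM (log2 fold change 0.39). The helicase eIF4A stood at 722 and 594 CPM against 528 and 497 CPM (log2 fold change 0.36), and eIF5, which triggers GTP hydrolysis by eIF2, at 372 and 345 CPM against 266 and 298 CPM (log2 fold change 0.34). All 5 had both GAF libraries above both Mi-2 libraries, with adjusted p between 0.0516 and 0.092 in edgeR. These calls needed both GAF libraries, as did those of the members. With 1 library left out, log2 fold changes ran from 0.39 to 0.67 (eIF2A), 0.36 to 0.49 (eIF3d1), 0.30 to 0.46 (Rack1), 0.22 to 0.49 (eIF4A) and 0.27 to 0.44 (eIF5). With the gene length trend removed, eIF2A, eIF4A and eIF5 were not called (adjusted p = 0.117, 0.168 and 0.185 in edgeR). eIF6 and eIF4G2 were at 0 in every library and lie wholly under another gene of their strand.

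Among 17 regulators of ribosomal protein gene transcription or translation, 16 had a row and 14 were tested. The median log2 fold change was 0.03, with 1 called higher and 2 lower (21.4% in either direction, against 9.46% of all genes). M1BP, which binds motif 1 in many of these promoters, stood at 42.0 and 46.0 CPM in the GAF knockdown and 21.2 and 26.0 CPM in the Mi-2 knockdown (log2 fold change 0.90, standard error 0.236, adjusted p = 0.058 in edgeR). REPTOR, a transcription factor held back by TORC1, stood at 939 and 896.7 CPM against 1072 and 1147 CPM (log2 fold change -0.27, adjusted p = 0.0684 in edgeR). crc, the fly ATF4, stood at 587 and 597 CPM against 705 and 724 CPM (log2 fold change -0.27, adjusted p = 0.0804 in edgeR). M1BP had both GAF libraries higher, and REPTOR and crc had both lower. These 3 calls also needed both GAF libraries. With 1 library left out, log2 fold changes ran from 0.76 to 1.07 (M1BP), -0.32 to -0.21 (REPTOR) and -0.29 to -0.24 (crc). With the gene length trend removed REPTOR stood at -0.13 (adjusted p = 0.416 in edgeR), and with no filter on low counts crc was not called (adjusted p = 0.122 in edgeR). Myc was at 0 in every library under an overlapping noncoding gene.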

How the data were processed

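neuRNA-seq is RNA sequencing of newly made RNA: Kc167 cells were fed 5-ethynyl uridine (EU, 0.2 mM for 1 h), and the labelled RNA was biotinylated, captured and made into stranded libraries. Per the study's methods, the authors trimmed reads with cutadapt 1.10, mapped them to dm6 with HISAT2 2.0.4 and counted them with featureCounts 1.5.0-p3 over whole gene bodies on the sense strand. The authors deposited whole-number counts for each gene, neither normalized nor pooled. Of 20 samples in the series, 4 had a column whose name matched their label. The table's 6 other columns of per-sample values matched no label and were used in no step, so no mock treatment enters. A second deposited table was identical and was not used.

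Total counts per library ran from 3966515 to 12563919. Genes were filtered with filterByExpr, scaled by TMM and compared with the quasi-likelihood test of edgeR 4.0.16 in R 4.3.3, fitted on 7826 genes. Benjamini-Hochberg adjustment ran over all of them, and an adjusted p under 0.1 was a call. The standard error was taken as the fold change on the log2 scale over the root of F. CPM is the count scaled to a common TMM-adjusted library size (counts per 1e6). DESeq2 1.42.0, 3 other scalings, TMM set without the ribosomal protein genes, no filter, removal of gene length or coding length trends, thinning to equal depth, and leaving out each library were alternatives. The coding length trend was added after the data were seen. The scripts were tested on simulated data.

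Gene names came from a FlyBase name table (17464 of 17659 IDs matched), and positions, overlaps and coding lengths from the Ensembl release 115 annotation of dm6, which is later than the annotation used for counting. Members and gene lists were chosen with earlier results of these data known. Genes named with values were all called members, the 5 members with the highest and the 5 with the lowest fold change, the 5 with the highest level per kilobase, paralogs, RpL32, called genes of the other lists (at most 5 in each direction) and the targeted genes. Of the called members, 1 enters the counts and medians and is not reported here.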

Additional observations from a re-analysis of the deposited data

How the results depend on the processing

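No paired analysis was possible because the knockdowns share only replicate number 2. With every library kept, between 9 and 10 members, RpS19b counted, were called higher under DESeq2, the other scalings, TMM set without ribosomal protein genes, no filter, the coding length trend and thinning. There were 6 after the gene length trend was removed (without RpL23A, RpL3 and RpL7A) and 5 at an adjusted p under 0.05. The median stayed above 0, down to 0.0793 with a library left out. Leaving out 1 library gave from 0 to 20 members higher and from 0 to 6 lower, from 0 to 14 translation factors higher and from 0 to 2 lower, from 0 to 3 regulators higher and from 0 to 2 lower, and from 0 to 3 paralogs higher and from 0 to 1 lower. Such a fit assumes that the lone library varies like the other group. Over all genes too, fewer were called without a GAF library and more without a Mi-2 library, in both directions. These ranges therefore do not show a response particular to ribosomal protein genes or to the other lists.

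Translation factors called higher numbered 10 under DESeq2, 11 with library size alone, 13 with no filter and 2 after the gene length trend. Over all genes, 292 of 11399, 386 of 7826, 494 of 11399 and 246 of 7709 were called higher in these settings. In the main fit it was 266 of 7826. Regulators called higher numbered 2 under DESeq2, library size alone, no filter and thinning, and regulators called lower 1 with no filter and after the gene length trend. In the main fit 1 paralog was called higher, RpS19b, which had to differ. Paralogs called higher numbered 2 under library size alone, no filter and the coding length trend, RpS19b counted. The other was RpL7 in the first 2 of these settings and RpS15Aa after the coding length trend. Over all genes, 221 of 7371 were called higher after that trend. Without snoRNA hosts the share differed by 0.0725 points.

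Log2 fold changes near 0 changed sign. RpL32 was -0.0179 under the upper quartile and -0.0136 after thinning. RpL24 was 0.0185 with library size alone, 0.00958 with no filter, 0.0502 after the coding length trend and 0.0106 after thinning. RpS19a was 0.0146, 0.00513 and 0.0443 in the first 3 of these. RpL34a was 0.0105 after the gene length trend, RpS28b 0.0478 after the coding length trend, and RpS15Ab 0.0957, 0.0472 and 0.0997 after the gene length trend, the coding length trend and thinning. With a library left out, RpLP1 ran from -0.0503 to 0.223, RpL34a from -0.198 to 0.0495, RpL24 from -0.141 to 0.138, RpL32 from -0.138 to 0.135, RpL39 from -0.0726 to 1.80, RpS15Ab from -0.187 to 0.136, RpS19a from -0.0484 to 0.0250, RpS28b from -0.332 to 0.143, RpL24-like from -0.259 to 0.0313 and RpL37-1 from -0.0280 to 0.306. The cause was not tested. RpS15Ab, with few counts, had a standard error of 0.414, and what depth adds to it was not tested.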

Other observations

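Of the 13 listed subunits of eIF3, the scaffold that joins mRNA to the 40S subunit, all 13 had a log2 fold change above 0 in the GAF over the Mi-2 knockdown (median 0.32, from 0.01 for eIF3h to 0.54 for eIF3k). In 9 of them both GAF libraries were above both Mi-2 libraries, against 24.8% of all genes. In edgeR 2 were called higher, against 3.40% of all genes. The 3 subunits of eIF2, which brings the initiator tRNA, stood from 0.37 to 0.40 and none was called (adjusted p from 0.125 to 0.188 in edgeR). The 4 listed subunits of eIF2B, which reloads eIF2 with GTP, had a median of 0.07. These groups were formed after the values were seen, and the differences between them were not tested.

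eIF4B, an RNA-binding cofactor of eIF4A, stood at 0 and 52.9 CPM in GAF knockdown replicates 2 and 3 and at 2.27 and 78.0 CPM in Mi-2 knockdown replicates 1 and 2 (0, 673, 9 and 432 counts). No other gene of the strand overlaps it. It was near 0 in 1 library of each knockdown, so the difference between replicates was far larger than that between the knockdowns (adjusted p = 0.864 in edgeR). It was chosen after its values were seen.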
